A study of Rattus norvegicus with 4 samples.

Results

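Flavin-containing monooxygenases and molybdenum oxidases were described in rat pancreas under low and high dietary iron. The members were 4 flavin monooxygenases (Fmo1, Fmo2, Fmo4 and Fmo5), 2 molybdenum hydroxylases (Aox1 and Xdh) and the sulfite oxidase Suox, together 7 of the 19337 named genes on the array. They were taken by gene symbol, and the set was chosen by their measured log2 ratios on these same arrays, so all values below are descriptions and no member was tested. The 7 genes were covered by 8 of 30367 gene probes, since Fmo2 had 2 probes and every other member had 1.

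Male weanling Sprague-Dawley rats received an iron-deficient (FeD, 5 ppm iron), iron-adequate (FeA, 35 ppm) or iron-overloaded diet (FeO, 20275 ppm, as carbonyl iron) for 3 weeks. The diets shared a purified base with raised sucrose, and the rats were fasted overnight before the pancreas was taken. RNA of 6 rats per diet was combined into 1 pool, and either test pool was set against the FeA pool on a pair of arrays, with Cy3 and Cy5 exchanged between them. The arrays therefore repeated the measurement of the same pools and carried no information on the spread between rats, and both comparisons shared the FeA pool. In either comparison the diet pool was in Cy5 on array 1 and in Cy3 on array 2. A difference or SD between these arrays thus cannot be told apart from an effect of the dye.

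Flavin monooxygenases carry FAD and use NADPH and oxygen to add an oxygen atom to soft nitrogen or sulfur atoms of drugs, amines and thioethers. Xanthine dehydrogenase and aldehyde oxidase are related proteins that hold a molybdenum cofactor, FAD and iron-sulfur clusters; the first makes uric acid, which the rat breaks down further, and the second oxidises aldehydes and nitrogen heterocycles. Sulfite oxidase pairs the molybdenum cofactor with a heme, and converts the sulfite formed from cysteine and methionine into sulfate. Liver is the organ in which most of these enzymes are best known.

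Fmo1 and Aox1 carried the largest ratios of the 7 genes, and Fmo2 is the direct neighbour of Fmo1, so the 250 bases before the annotated starts of these 3 genes are shown. They are from RefSeq, assembly GRCr8, which is not the build of the array design: chr13:77747667-77747916 on the minus strand for Fmo1, chr13:77777535-77777784 on the minus strand for Fmo2 and chr9:67073641-67073890 on the plus strand for Aox1. Each reads from 5′ to 3′ along the gene, and capitals mark matches to the motifs searched.
Fmo1: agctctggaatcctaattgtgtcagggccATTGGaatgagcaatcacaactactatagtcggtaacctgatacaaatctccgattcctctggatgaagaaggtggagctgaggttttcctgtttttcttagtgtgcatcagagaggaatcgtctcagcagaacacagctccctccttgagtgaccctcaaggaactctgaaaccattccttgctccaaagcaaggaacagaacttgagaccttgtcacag
Fmo2: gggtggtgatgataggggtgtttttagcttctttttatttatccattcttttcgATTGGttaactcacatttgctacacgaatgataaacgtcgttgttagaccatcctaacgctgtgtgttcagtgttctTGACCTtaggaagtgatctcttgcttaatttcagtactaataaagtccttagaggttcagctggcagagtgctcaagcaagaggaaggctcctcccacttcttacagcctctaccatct
Aox1: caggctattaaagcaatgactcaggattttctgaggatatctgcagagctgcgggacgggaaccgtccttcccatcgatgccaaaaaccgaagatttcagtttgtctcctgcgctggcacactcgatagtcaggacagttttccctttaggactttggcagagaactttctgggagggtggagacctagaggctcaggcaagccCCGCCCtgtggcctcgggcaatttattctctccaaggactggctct

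On both strands 6 motifs were searched: TATAAA (the TATA box), CCAAT (the CCAAT box), GGGCGG (the GC box), AGGTCA (the core site of nuclear receptors), TGACNNNGC with N as any base (the core of the antioxidant response element) and ACGTG (the core of the hypoxia response element). Fmo1 held 1 match to the CCAAT box, in reverse orientation, with its first base at -221 from the start. Fmo2 held the CCAAT box in reverse at -196 and the nuclear receptor core in reverse at -119. Aox1 held the GC box in reverse at -46. Of 33469 rat promoter windows of this length, 12.9% held the TATA box, 34.0% the CCAAT box, 30.5% the GC box, 14.1% the nuclear receptor core, 10.1% the antioxidant core and 16.6% the hypoxia core, so each motif found here is also common elsewhere. No match overlapped another. No motif was found in both the Fmo1 and the Aox1 window. A match is a description of letters, and a missing match says only that those letters are not in the window. The promoter table held 6 of the 7 genes, and Fmo4 was not matched.

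Each array carried 42877 gene spots, of which 61.9% to 71.5% were well above background by the scanner software, and all 4 arrays came from 1 slide and 1 scan. Median spot signals per channel were 115 to 222.5 against local backgrounds of 50 to 87, so a probe near the median had little signal to spare. The RNA was checked against 12 markers of acinar cells, the enzyme-secreting cells that make up most of the pancreas. All 12 were well above background, although outlier spots left 7 of them with a value on both FeO arrays. A probe was kept in a comparison when it was well above background on both arrays in at least 1 of the 2 diets, which left 17513 probes for FeD and 18315 for FeO. Over these probes the 2 arrays of a comparison differed by a median of 0.22 log2 units in FeD and 0.23 in FeO. At the 95th percentile they differed by 0.72 and 0.78.

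Fmo1, an Fmo with a broad range of amine and sulfur substrates, was higher in the FeO pool. Its uncorrected median signal in FeO was 696 in the red dye and 430 in the green dye, against 170.5 and 120 for FeA in the same dyes. The normalised log2 channel signal was 8.92 and 9.05 in FeO, between 6.85 and 7.22 in FeA over 4 arrays, and 6.79 and 6.87 in FeD. Both FeO values lay above every FeA and FeD value, whereas FeD and FeA overlapped. The share of all probes whose pools lay apart is not given, so here and below nothing is read from such a gap alone. The log2 ratio of FeO over FeA was 1.71 on array 1 and 2.20 on array 2, with a mean of 1.95 ± 0.35 (SD over 2 arrays), a 3.87-fold difference. The log2 ratio of FeD over FeA was -0.36 and -0.03, with a mean of -0.20 ± 0.24 (SD over 2 arrays). A span of 1 SD around this mean includes 0.

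Aox1, the aldehyde oxidase, was higher in the FeO pool by nearly the same amount. Its uncorrected median signal in FeO was 771 in red and 378 in green, against 171 and 114 for FeA in the same dyes. The log2 channel signal of Aox1 was 9.10 and 8.84 in FeO, between 6.83 and 7.12 in FeA and 6.87 and 6.97 in FeD. FeO again lay apart from both other pools, and the FeD values fell within the FeA range. The log2 ratio of FeO over FeA for Aox1 was 1.97 and 2.02, with a mean of 2.00 ± 0.03 (SD over 2 arrays), a 3.99-fold difference. Among all probes kept in this comparison Aox1 stood at rank 11 and Fmo1 at rank 12 from the highest ratio. The log2 ratio of FeD over FeA for Aox1 was -0.03 and -0.06, with a mean of -0.05.

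**Figure D1:**
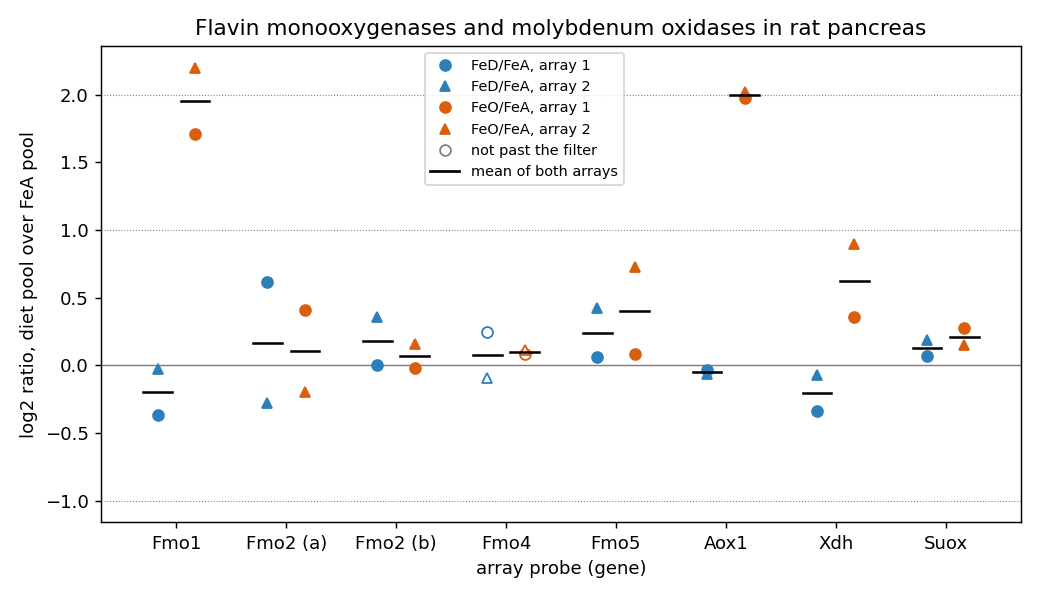
Log2 ratio of the diet pool over the FeA pool (y axis) for the 8 probes of the 7 genes (x axis), with circles for array 1, triangles for array 2, blue for FeD and orange for FeO; black lines are means of both arrays, open symbols are probes not well above background, and dotted lines mark log2 ratios of -1, 1 and 2. Fmo1 at 1.95 and Aox1 at 2.00 in FeO stand above the other probes, and Fmo2 is shown for its 2 probes, a and b.

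The size of both ratios depended on how the background was treated, while the direction did not. Aox1 was 3.47-fold higher in FeO without background subtraction, 6.25-fold with background correction without an added constant and 8.38-fold on the processed signals of the scanner software. The same 3 settings gave 3.45-fold, 5.85-fold and 6.46-fold for Fmo1. At an FeA signal this close to background the fold is thus less certain than its sign, and on each of the 4 arrays by itself the 2 genes kept the signs given above.

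**Figure D2:**
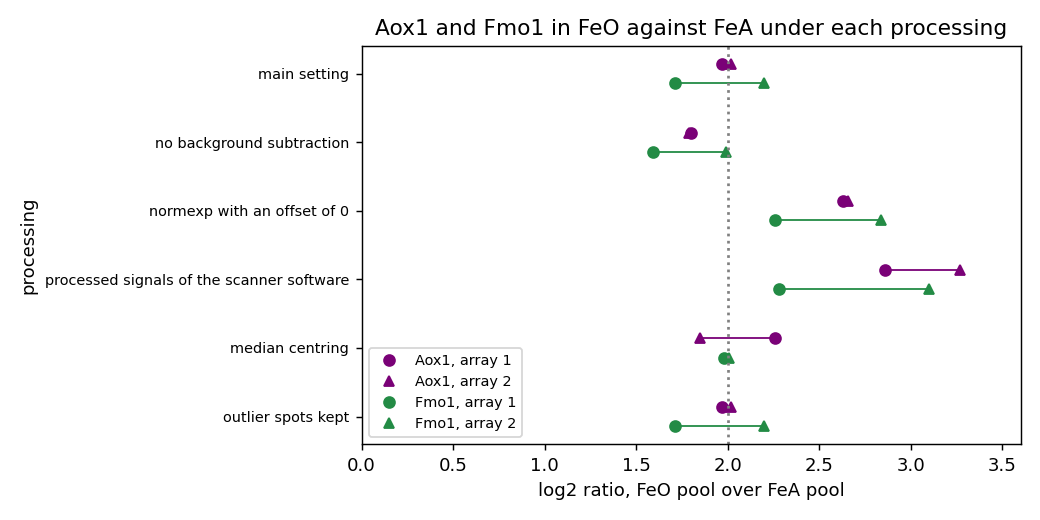
Log2 ratio of FeO over FeA (x axis) for Aox1 (purple) and Fmo1 (green) under the main setting and 5 other ways of processing (y axis), with circles for array 1, triangles for array 2 and a dotted line at 2. Every point lies well to the right of 0, and the means run from 1.80 to 3.07 for Aox1 and from 1.79 to 2.69 for Fmo1.

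The neighbouring Fmo genes that passed the filter did not share the ratio of Fmo1. In RefSeq GRCr8, Fmo4, Fmo1, Fmo2 and Fmo6 lie in this order on chromosome 13, with a pseudogene and a noncoding RNA gene between Fmo2 and Fmo6. With probe a, Fmo2 gave a log2 ratio of FeO over FeA of 0.41 and -0.20 (mean 0.11). With probe b it gave -0.02 and 0.15 (mean 0.07). In FeD the ratios of Fmo2 were 0.62 and -0.28 with probe a (mean 0.17) and 0.00 and 0.36 with probe b (mean 0.18). The arrays of a comparison thus disagreed in sign for both Fmo2 probes in FeO and for probe a in FeD, and the channel signals of the 3 pools overlapped for either probe.

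Fmo4, another gene of the cluster, lacked a signal well above background on all 4 arrays, so it gives no fold. Its log2 channel signals were 5.98 to 6.16 in FeA, 6.06 and 6.23 in FeD, and 6.17 and 6.14 in FeO, and the pools overlapped. Fmo6, on the other side of Fmo2, passed the filter with mean log2 ratios of -0.06 in FeD and -0.09 in FeO. Fmo9, listed on the array as Fmo9p, and Fmo13 did not pass in either comparison.

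Fmo5, which differs from other Fmos in oxidising ketones to esters and lies on chromosome 2, had 10 spots on each array. Its log2 ratio of FeO over FeA was 0.08 on array 1 and 0.73 on array 2, with a mean of 0.40 ± 0.46 (SD over 2 arrays). In FeD it was 0.06 and 0.42, with a mean of 0.24. The SD over the spots used within 1 array was 0.08 to 0.17, so the arrays of a comparison differed by more than the spots of an array did. The log2 channel signal of Fmo5 was 6.97 and 7.27 in FeO, 6.91 and 7.09 in FeD, and 6.54 to 6.89 in FeA, so that the highest FeA value lay just under the lowest FeD value, and FeD and FeO overlapped.

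**Figure D3:**
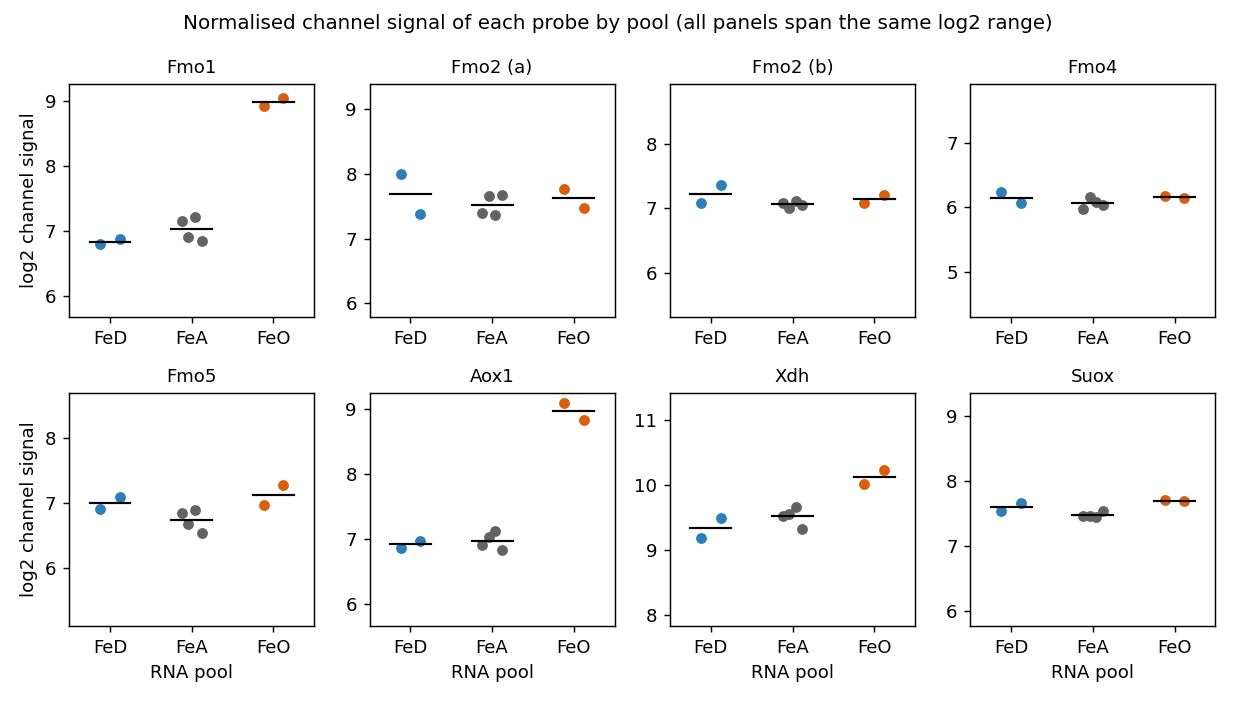
Normalised log2 channel signal (y axis) in the FeD, FeA and FeO pools (x axis) for each of the 8 probes, with 1 point per array and channel (2 for FeD, 4 for FeA, 2 for FeO) and black lines for means; all panels span the same range of log2 units but are centred on their own probe, so heights cannot be compared between probes. Fmo1 and Aox1 in FeO, at 8.84 to 9.10, stand clear of FeA and FeD, and Xdh in FeO lies above both by a smaller step.

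Xdh, which forms uric acid from hypoxanthine and xanthine, showed a smaller ratio in the same direction as Aox1 in FeO. The log2 channel signal was 10.02 and 10.23 in FeO, 9.33 to 9.67 in FeA, and 9.18 and 9.49 in FeD. FeO lay above the other 2 pools, which overlapped with each other. The log2 ratio of FeO over FeA was 0.35 and 0.90, with a mean of 0.63 ± 0.38 (SD over 2 arrays), a 1.54-fold difference at rank 375 of the probes kept. In FeD the ratio of Xdh was -0.34 and -0.07, with a mean of -0.21.

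Suox, the sulfite oxidase of the mitochondrial intermembrane space, had the smallest ratio of the molybdenum members in FeO. Its log2 ratio was 0.27 and 0.15 in FeO (mean 0.21 ± 0.09, SD over 2 arrays, 1.16-fold) and 0.07 and 0.19 in FeD (mean 0.13). The log2 channel signals of Suox were 7.71 and 7.69 in FeO, 7.44 to 7.54 in FeA and 7.54 and 7.66 in FeD. FeO was highest, and FeD met the top of the FeA range. Counted from the lowest ratio, the Suox means stood at percentile 83.9 in FeO and 78.1 in FeD among all probes kept. They are smaller than the median difference between 2 single arrays of a comparison, which is a wider scale than that of a mean.

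The study's methods asked for a log2 ratio of at least 2 in size together with a t-test; here only the size was used, with the same sign required on both arrays. By that rule 0 of the 7 member probes that passed the filter were called in FeO, where 0.0546% of all probes were called upward. Aox1 fell just short, with a mean of 1.996 before rounding. With median centring Aox1 passed at 2.052, and Fmo1 at 1.998 did not. With the processed signals of the scanner software, or with background correction without an added constant, Aox1 and Fmo1 both passed this size. At a log2 ratio of at least 1, 2 of 7 member probes were called upward in FeO, Fmo1 and Aox1, beside 0.617% of all probes. Because the genes were chosen with these ratios known, nothing is read from the contrast of these shares. In FeD 0 of 7 were called in either direction at a log2 ratio of at least 1, beside 0.365% of all probes. The median log2 ratio of all probes kept was 0.01 in FeD and 0.02 in FeO, and 90% of them lay between -0.24 and 0.32 in FeD and between -0.33 and 0.42 in FeO.

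Among the other molybdenum enzymes, Mosc1 (mitochondrial amidoxime reducing component 1, now Mtarc1), a reductase of N-hydroxylated compounds in the outer mitochondrial membrane, was also higher in FeO. Its log2 channel signal was 10.05 and 9.88 in FeO, 8.33 and 8.06 in FeA on the same arrays, and 8.05 and 8.13 in FeD. FeO lay apart from both. The log2 ratio was 1.72 and 1.81 in FeO (mean 1.77, 3.40-fold) and -0.18 and -0.03 in FeD (mean -0.11). Its relative Mosc2 gave a mean of 0.23 in FeO and 0.03 in FeD. The aldehyde oxidase genes that lie beside Aox1 on chromosome 9 in RefSeq GRCr8 were dim: Aox3 and Aox4 did not pass the filter, and Aox3l1, taken here as Aox2, passed in FeO with a log2 ratio of -0.03.

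**Figure D4:**
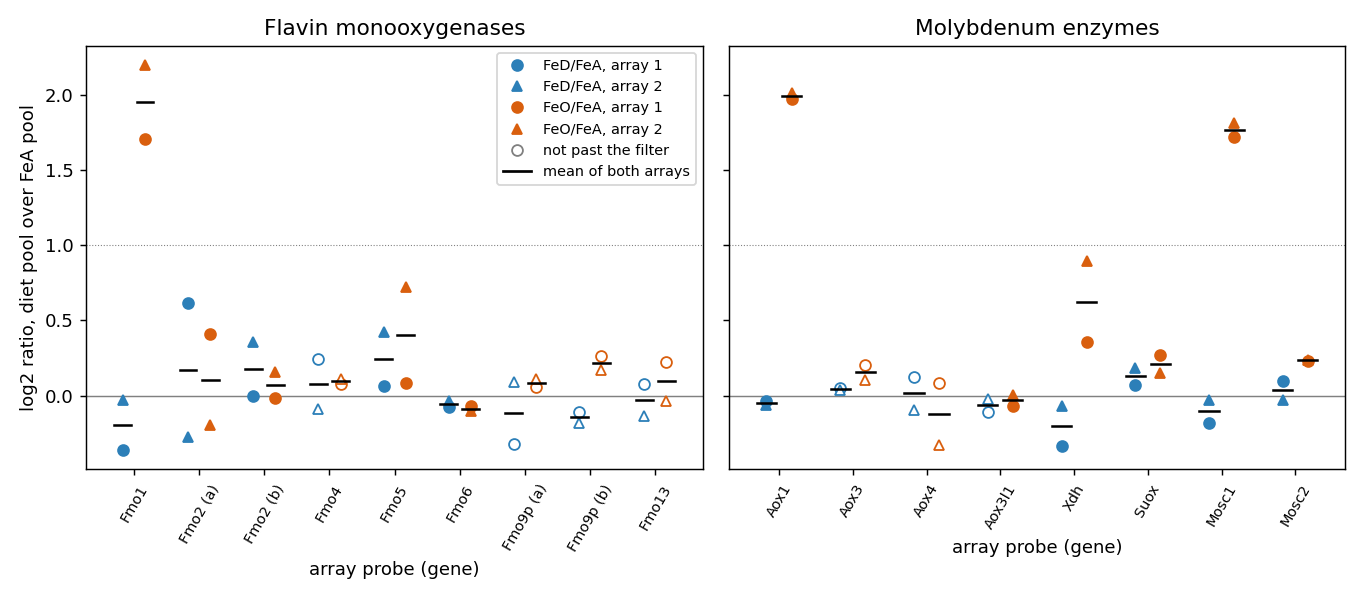
Log2 ratio of the diet pool over the FeA pool (y axis) for probes of the flavin monooxygenase genes named in the text (left) and of molybdenum enzyme genes (right), with circles for array 1, triangles for array 2, blue for FeD, orange for FeO, black lines for means and open symbols for probes that did not pass the filter. In FeO the means of Fmo1 (1.95), Aox1 (2.00) and Mosc1 (1.77) lie above the line at 1, and no mean in FeD does.

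Genes that supply the molybdenum and flavin cofactors showed no ratio of this size. Of 6 genes of molybdenum cofactor synthesis, which includes Gphn (gephyrin, the last step of cofactor assembly) and Nfs1 (the sulfur donor), 5 passed the filter. Their median log2 ratio was 0.08 in FeD and 0.11 in FeO, the FeO values ran from -0.28 to 0.19, and 0 reached 1 in size. All 5 genes of flavin supply, which covers riboflavin transport and the enzymes that make FMN and FAD, passed with medians of -0.09 and -0.12, and 0 reached 1. Of all probes kept, 0.365% in FeD and 1.11% in FeO reached 1 in size. A count of 0 in lists this short, here and below, thus says little about a pathway.

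In purine breakdown Xdh makes the uric acid that later enzymes degrade in the rat. The list for this pathway, which also held genes of purine reuse, had 9 of 12 genes on the array past the filter. Its medians were 0.02 in FeD and 0.07 in FeO, with 0 genes at 1 or more in size. Gda (guanine deaminase), which forms xanthine, had a log2 ratio of 0.50 and 1.01 in FeO (mean 0.75) and of -0.01 and 0.39 in FeD (mean 0.19). Ada (adenosine deaminase) was lower than FeA on all arrays, with means of -0.68 in FeD and -0.52 in FeO. Of 6 urate transport genes 3 passed in FeD and 2 in FeO, with medians of -0.06 and -0.26 and 0 at 1 or more in size. One of these, the efflux pump Abcg2, was well above background in FeA but not in the other 2 pools, and was at least 1.28-fold higher in FeA than in FeD and at least 1.24-fold higher in FeA than in FeO. These bounds set the dim pool, per array, at the lowest signal called well above background or at the probe's own signal, whichever was higher.

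Sulfur amino acid oxidation, which delivers the sulfite for Suox, had 10 of 11 genes on the array past the filter. The median log2 ratio was 0.05 in FeD and 0.22 in FeO. At a size of 1, 2 genes were upward in FeO against 0 in FeD, with 0 downward in both. Of all probes kept, 0.617% in FeO and 0.12% in FeD reached 1 upward. Cdo1 (cysteine dioxygenase), which starts the oxidation of cysteine, had a log2 ratio of 1.23 and 1.31 in FeO (mean 1.27, 2.41-fold) and a mean of -0.11 in FeD. Cth (cystathionine gamma-lyase), which makes cysteine, had 0.69 and 1.56 in FeO (mean 1.13) and 0.30 and 1.11 in FeD (mean 0.70). Cdo1 was thus set apart between the diets while Cth lay above FeA in both, with arrays that differed widely.

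Of 12 other oxidases and reductases of foreign compounds, 8 passed in FeD and 10 in FeO, with medians of 0.13 and 0.15 and 0 at 1 or more in size. Cyp2e1, a cytochrome P450 of ethanol and small solvents, had a log2 ratio of 0.80 and 1.10 in FeO. It was well above background in FeO and not in FeA. Its mean was 1.93-fold higher in FeO, a value that rests on the dim FeA signal. Por, the reductase that feeds the cytochromes P450, gave -0.06 and 0.81 in FeO (mean 0.38).

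The genes whose 4 ratios (2 arrays in each comparison) lay nearest to those of Fmo1, by Euclidean distance over 16951 probes kept in both comparisons, were Igfbp2 (distance 0.32), Car3 (0.37) and Mosc1 (0.43). Those nearest to Aox1 were Car3 (0.36), Mosc1 (0.36) and Adipoq (0.41). Igfbp2 is an insulin-like growth factor binding protein, Car3 a carbonic anhydrase abundant in fat and muscle, and Adipoq the fat-cell hormone adiponectin. In FeO the log2 ratios were 2.14 for Car3, 2.07 for Adipoq and 1.87 for Igfbp2, and in FeD they were -0.22, 0.21 and -0.40. Car3 and Adipoq also stand on the adipocyte list that follows.

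Markers of adipocytes moved with Fmo1 and Aox1 in FeO. All 14 adipocyte genes passed the filter there, and 13 exceeded FeA on each FeO array. Of the 14, 9 had a log2 ratio of at least 1, beside 0.617% of all probes. The 14 genes had a median of 1.56 and a range of 0.10 to 2.30. Their summed linear channel signal was 42900 to 43700 in FeO, 10900 to 13800 in FeA and 10000 to 11100 in FeD. Cfd, which encodes adipsin, had the highest ratio at 2.30, while leptin (Lep) gave -0.11 and 0.31 and the lipid droplet coat gene Plin, not well above background in FeA, was at least 1.10-fold higher in FeO. In FeD 13 of the 14 passed, 0 reached 1, and the median was -0.06. In pooled tissue RNA a larger share of a cell type and more RNA per cell of that type cannot be told apart, and the part of adipocyte RNA in the Fmo1, Aox1 and Mosc1 ratios was not tested.

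Other cell type lists moved by less in that direction. In FeO the median was 0.45 for fibroblast and mesothelium genes, with Wt1 at 1.11 by 1 of its 3 probes, and 0.39 for endothelium genes. Of the 7 endothelium genes that passed in FeO, only Cd36, at 1.15 and 1.06, reached 1. In FeD these medians were 0.02 and 0.25. Hepatocyte genes, of interest because liver is rich in these enzymes, had medians of 0.20 and 0.03 over the 3 that passed, and 5 of 8 were not well above background on any FeO array; Alb stood at 0.62 and Ttr at -0.48 in FeO. Gut epithelium genes were lower in both comparisons (medians -1.37 and -1.72), with Lgals4 at -3.60 in FeO. In each comparison 8 of 12 were at -1 or below, beside 0.246% of all probes in FeD and 0.497% in FeO. Fabp2 was not well above background in FeD or FeO. It was at least 6.76-fold higher in FeA than in FeD and at least 6.32-fold higher than in FeO. The paper, however, could not detect Fabp2 in pancreas by qRT-PCR. Lymphoid genes had medians of 0.56 in FeD and -0.50 in FeO, with Glycam1 at 1.15 and -2.75. Acinar genes had medians of -0.03 and -0.32, with Amy2 at -0.65 in FeO; the probe highest in FeD, Ctrb1, was saturated and gets no value, and saturated spots of Cpb1, Pnlip and other acinar genes limit these medians. Islet genes had medians of -0.22 and -0.31, with Ppy at -1.19 and Gcg at 1.14 in FeO. Duct genes had medians of 0.02 and -0.16, with Krt19 at -0.98 in FeO, and smooth muscle genes -0.43 and 0.02, with Actg2 at -1.44 in FeD. The part of these cell types in the members' ratios was not tested.

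**Figure D5:**
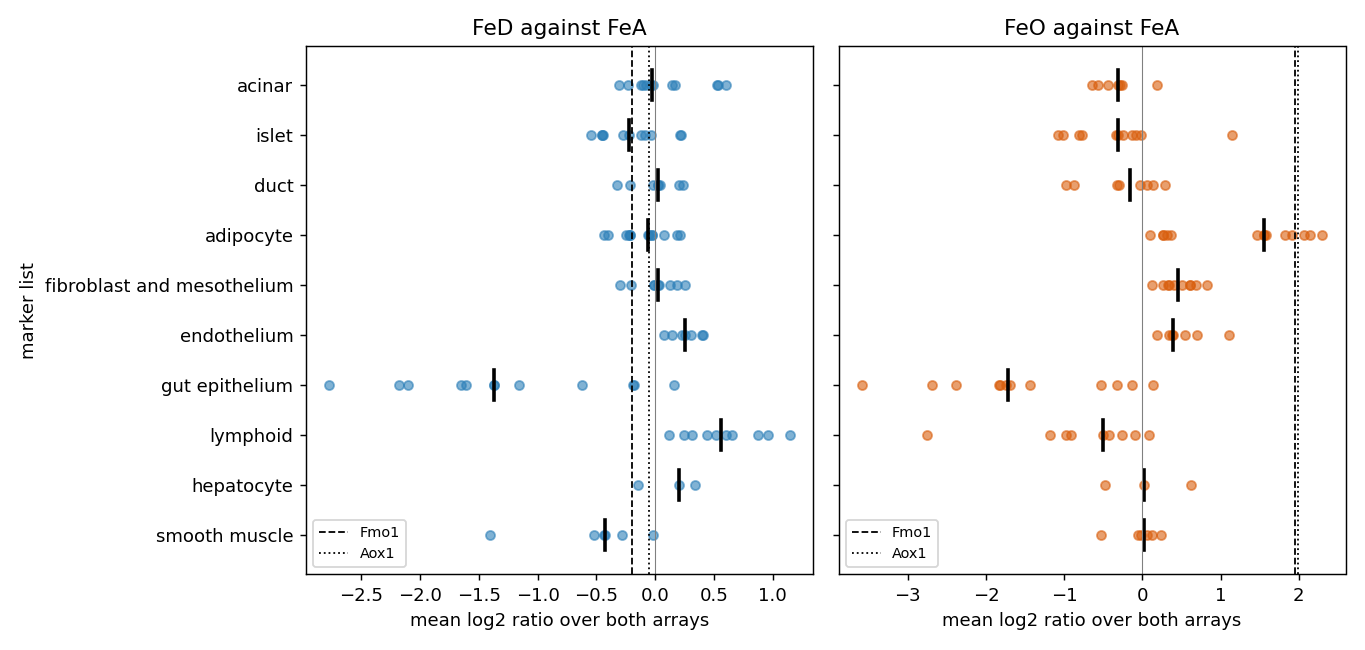
Mean log2 ratio over both arrays (x axis) of each marker gene that passed the filter, by cell type list (y axis), for FeD against FeA (left, blue) and FeO against FeA (right, orange); thick bars are list medians, and dashed and dotted lines mark Fmo1 and Aox1. In FeO the lines at 1.95 and 2.00 fall among the upper adipocyte genes, whose median is 1.56, and in FeD they fall near 0.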

How the data were processed

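The deposited intensity values were read by the authors from 4 two-colour arrays with Agilent Feature Extraction 10.1.1.1. No mean spot signals are in the scanner files, so median spot and local background signals were used. In R 4.3.3 with limma 3.58.1, normexp (offset 50) removed background, loess was applied within each array with control spots at weight 0, and outlier spots were left out. Loess holds most genes near 0, and the offset draws ratios of dim probes toward 0. Spots of a probe were averaged, and each ratio was turned to diet over FeA. Channel signals were scaled with Aquantile after loess. More than 50% of its spots had to be well above background for a probe to count as such in a pool.

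Tallies were made in Python 3.11.15 with pandas 2.3.3 and numpy 2.4.6. Each diet was 1 pool, so no test of the diets was made. The methods' t-test compares 2 channel values of each pool (scipy 1.17.1) and served as an alternative only. Also tried were median centring, an offset of 0, signals without background subtraction, the scanner software's processed signals, outlier spots kept, 2 other filters and each array alone. The R steps were tested on simulated data.

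Symbols came from the authors' deposited tables for 75.6% of probes, and 24.4% had none. The log2 fold changes, p-values and q-values that the authors deposited there were not used. The members and all gene lists were chosen with earlier results of these data known. Named genes are the members, the families of both enzyme classes (1 gene is not reported here), pathway genes at a log2 ratio of 1 or more, the most extreme markers of each list and the 3 nearest patterns; Gda, Ada, Abcg2, Cyp2e1, Por, Gphn, Nfs1, Lep and Plin were added after their values were seen.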

Additional observations from a re-analysis of the deposited data

Results flagged for a closer look

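For 3 genes both arrays of FeD against FeA lay below 0 and both arrays of FeO against FeA lay above 0. Over all probes kept, 46.4% in FeD and 51.9% in FeO had the same sign on both arrays of the comparison. The share of all probes with the pattern of these 3 genes was not counted, so nothing is read from their number. The mean log2 ratio of Fmo1 was -0.197 in FeD and 1.954 in FeO. The mean log2 ratio of Aox1 was -0.049 in FeD and 1.996 in FeO, and that of Xdh was -0.205 in FeD and 0.625 in FeO. Counted from the lowest ratio, the FeD means stood at percentile 7.69 for Fmo1, 33.2 for Aox1 and 7.07 for Xdh among all probes kept. The median difference of 0.22 log2 units in FeD is between 2 single arrays, so it is not the spread of such a mean. These differences between FeD and FeO were not tested, since each diet was 1 pool and both comparisons used the same FeA pool.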

How the results depend on the processing

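Over 16 mean log2 ratios (8 probes in 2 comparisons) and 7 alternatives each, 112 values were recomputed. Of these, 92 moved by less than 1 SD between arrays, 20 moved by more and 0 counted as reversed. Alternatives that kept 1 array could not exceed 1 SD, since either of 2 values always lies within 1 SD of their mean. The 92 thus includes values whose label was fixed in advance. The small means of both Fmo2 probes in FeO, and of Fmo2 probe a and Fmo4 in FeD, took the other sign on 1 array. The number of member probes at a log2 ratio of at least 2 in FeO was 0 in the main setting, 2 with an offset of 0, 2 with the processed signals of the scanner software and 1 with median centring. Leaving out 1 array gave 0 to 2: 2 without array 1 and 0 without array 2. At a log2 ratio of at least 1 in FeO the count was 2, and it was 0 when the methods' t-test after Benjamini-Hochberg adjustment was added; without adjustment that t-test called 1465 of 18315 probes in FeO at an unadjusted P under 0.05, and after adjustment 0. The counts in FeD were 0 under every alternative run, and that t-test called 1084 probes unadjusted and 0 adjusted. Over all probes, FeD counts at a log2 ratio of 1 in size went from 64 to 163 with an offset of 0 and 315 with processed signals, and FeO counts from 204 to 423 and 703. At a size of 2 they went from 20 to 31 and 70 in FeD and from 35 to 71 and 152 in FeO. The share called upward moved at a size of 1 in FeD from 32.8% to 47.6% with processed signals and to 43.8% under a filter that asked for well-measured signal in FeD and FeA alike, and at a size of 2 in FeO from 28.6% to 40.8% with an offset of 0 and with processed signals. No pairing of rats was possible because each diet is 1 pool and its arrays repeat the same RNA. The log2 ratios pair the channels of each array, whereas the methods' t-test was run unpaired. The signal over background limits the fold of the dim FeA and FeD values of Fmo1 and Aox1.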
